A study of Saccharomyces cerevisiae with 6 samples.

Results

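The region described here is a stretch of 25S rRNA, nucleotides 436 to 650, that holds expansion segment ES7. It was taken by position, as nucleotides 3687 to 3901 of the 35S pre-rRNA of Saccharomyces cerevisiae, so the choice used no measured value. The stretch has 215 of the 6858 nucleotides of the transcript, and 214 of the 6542 nucleotides with a raw reactivity in both strains. C576 had no value in Erb1-depleted cells. The transcript is encoded by the ribosomal DNA, of which RefSeq's table of assembly R64 places the RDN37-1 copy on chromosome XII. The scores were not assigned to any copy.

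Expansion segments are insertions in rRNA that eukaryotes carry and bacteria lack, and they differ in length between species. ES7 extends helix 25 in domain I of the large-subunit rRNA and lies on the solvent side of the mature subunit, where ribosomal proteins bind it. Near its 3' end the stretch holds bases that are methylated in mature yeast 25S. The methyltransferase Rrp8 makes 1-methyladenosine at A645, and the box C/D snoRNA U18 guides 2'-O-methylation of A649 and C650. The sequence has A, A and C at these positions. No other feature of the files marks ES7, so its bounds rest on position alone.

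The samples were pre-ribosomal particles purified through TAP-tagged Mrd1, which binds RNA in early pre-ribosomes and on which 18S rRNA production depends. The first strain, called mutant here, has the genotype mrd1-deltaRDB5-TAP::K.I.TRP1 with pGAL-HA-MRD1::URA3, so it also holds an HA-tagged MRD1 gene under a galactose promoter. The sources used here do not say how far that copy was shut off. The second, the Erb1-depleted strain, has GAL::3HA-ERB1::KAN with MRD1-TAP::URA3. Its Erb1, which acts with Nop7 and Ytm1 in large-subunit assembly, is under a galactose promoter, and the labels name no deletion in its Mrd1. Both are in the BY4741 background, and a strain with neither change is not among the samples, so the effect of the mrd1 change and that of Erb1 depletion cannot be told apart. There were 2 libraries of the mutant treated with 1M7, 2 of Erb1-depleted cells treated with 1M7, and 2 of the mutant treated with the solvent DMSO, with no DMSO library labelled for Erb1-depleted cells. 1M7 is a SHAPE reagent: it reacts with the ribose of nucleotides that are free to move, and cDNA synthesis ends at the adduct, so a high reactivity marks a flexible nucleotide.

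The deposited sheet gives 1 value per nucleotide and strain, with the libraries of a strain not told apart. No difference below could be set against the spread between libraries, no test was possible, and the read depth is unknown. Raw reactivity is a score with a mean of 0 over the transcript, and it can be negative. To give the normalized score, raw scores of a strain were multiplied by 1 factor and negative ones set to 0. The posterior is the probability of modification that the BUM_HMM model gives, and a nucleotide is called modified, meaning by 1M7, at a posterior of at least 0.95.

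The sequence of the stretch is shown once for each strain, because the strains differ in which bases were reactive. Capitals mark a normalized reactivity of at least 0.7, a level chosen after the values were seen.
mutant: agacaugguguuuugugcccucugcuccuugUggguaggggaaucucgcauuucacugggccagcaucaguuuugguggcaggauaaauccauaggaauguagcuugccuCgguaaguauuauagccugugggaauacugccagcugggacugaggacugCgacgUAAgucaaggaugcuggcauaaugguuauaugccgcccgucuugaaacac
Erb1-depleted: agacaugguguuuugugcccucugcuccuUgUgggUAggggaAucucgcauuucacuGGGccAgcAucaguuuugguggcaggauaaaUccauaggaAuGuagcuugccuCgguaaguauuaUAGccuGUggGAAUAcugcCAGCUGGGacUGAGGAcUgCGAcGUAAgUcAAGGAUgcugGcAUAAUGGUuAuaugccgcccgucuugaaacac

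In the mutant 6 nucleotides of the stretch reached this level, and in Erb1-depleted cells 63 did. Over the whole transcript 12.1% of nucleotides reached it in mutant cells and 12.9% in Erb1-depleted cells. The stretch therefore lay below the transcript in mutant cells (2.79%) and above it in Erb1-depleted cells (29.4%). The 6 of mutant cells were U467, C546, C596, U601, A602 and A603, and each of them also reached the level in Erb1-depleted cells.

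**Figure D1:**
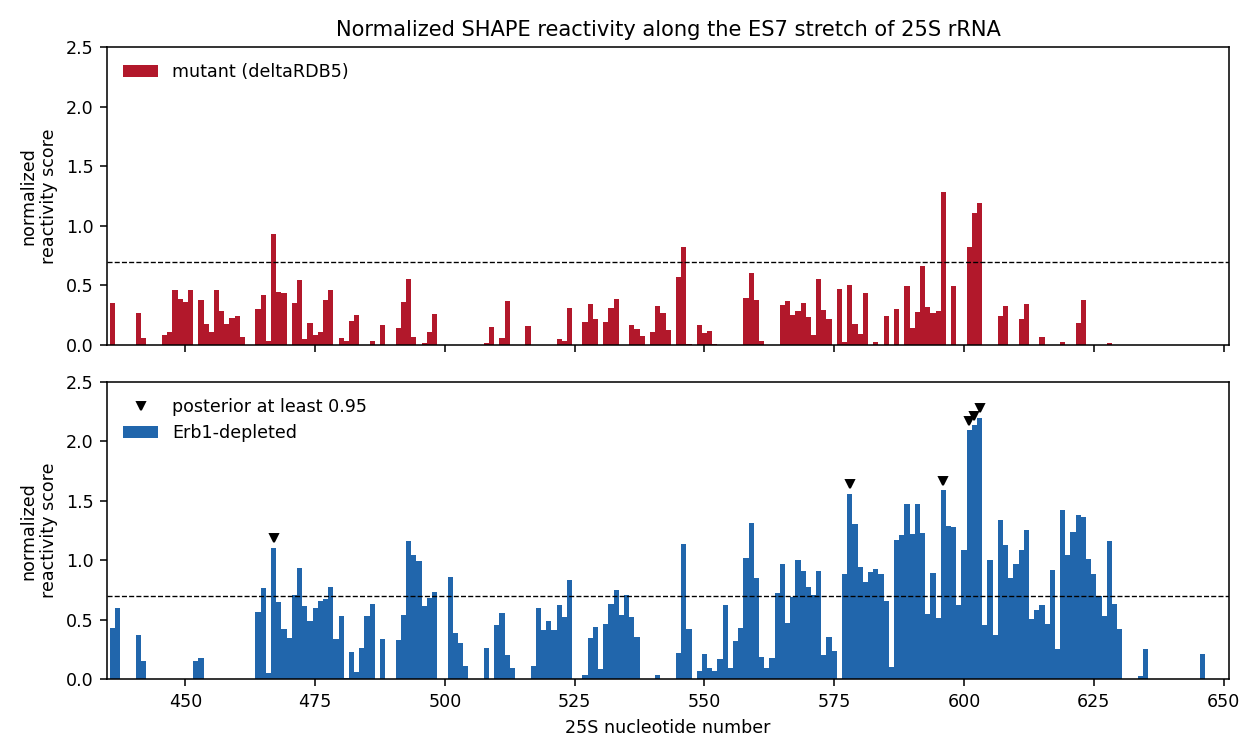
Normalized reactivity score of each nucleotide of the ES7 stretch by 25S nucleotide number, in mutant cells (upper panel) and the Erb1-depleted strain (lower panel). The dashed line is 0.7 and triangles mark a posterior of at least 0.95; the mutant passes the line at 6 nucleotides and has no triangle, and the Erb1-depleted strain passes it at 63, most of them between 565 and 630.

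By the posterior the stretch held 0 modified nucleotides in mutant cells and 6 in Erb1-depleted cells, where 2.79% of its nucleotides were modified. Over the transcript 18.5% of nucleotides were modified in mutant cells and 21.1% in Erb1-depleted cells. In the 215 nt before the stretch 43 were modified in mutant cells and 75 in Erb1-depleted cells, and in the 215 nt after it 55 and 59. The mutant had no modified nucleotide between positions 422 and 651 of 25S. This gap of 228 nt was the longest between modified nucleotides of mutant cells anywhere in the transcript, ahead of one of 163 nt later in 25S. In the Erb1-depleted strain the longest gap, of 230 nt, lay elsewhere in 25S, and the one within the stretch, from U467 to A578, had 110 nt.

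The 6 modified nucleotides of Erb1-depleted cells were led by a triplet, U601, A602 and A603. U601 had a normalized reactivity of 0.825 in mutant cells and 2.09 in Erb1-depleted cells. A602 had 1.11 in mutant cells and 2.13 in Erb1-depleted cells, and A603 had 1.19 and 2.20 in the same order. The triplet was thus among the most reactive nucleotides of the stretch in both strains and was higher in Erb1-depleted cells. C596 had 1.28 in mutant cells, the highest value of the stretch there, and 1.59 in Erb1-depleted cells. A578 had 0.503 in mutant cells and 1.56 in Erb1-depleted cells. U467 stood apart from the other 5, with 0.931 in mutant cells and 1.10 in Erb1-depleted cells. Just inside the threshold in Erb1-depleted cells lay C596 with a posterior of 0.988, and just outside it G579 with 0.930. In the mutant the highest posteriors were 0.895 at A603, 0.882 at C596 and 0.714 at A602, while U601 had 0.0125.

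Reactivity and posterior went apart in the stretch more than in the rest of 25S. Of the nucleotides with a normalized reactivity of at least 0.7, 0 of 6 in mutant cells and 6 of 63 in Erb1-depleted cells were modified by the posterior. In the rest of 25S these numbers were 263 of 274 in mutant cells and 288 of 291 in Erb1-depleted cells. The region most like the stretch in this was the 5'ETS, the spacer at the start of the transcript, with 51 of 107 in mutant cells (47.7%) and 66 of 121 in Erb1-depleted cells (54.5%). Between normalized reactivities of 1 and 1.5 in Erb1-depleted cells, 1 of 27 nucleotides of the stretch was modified and 97 of 97 of the rest of 25S. At 1.5 and above the numbers were 5 of 5 and 8 of 8. G591 and A589, each with a normalized reactivity of 1.47 in Erb1-depleted cells, had posteriors of 0.143 and 0.727 there. How the depth of coverage moves with these posteriors was not tested, since the sheet holds no read numbers.

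**Figure D2:**
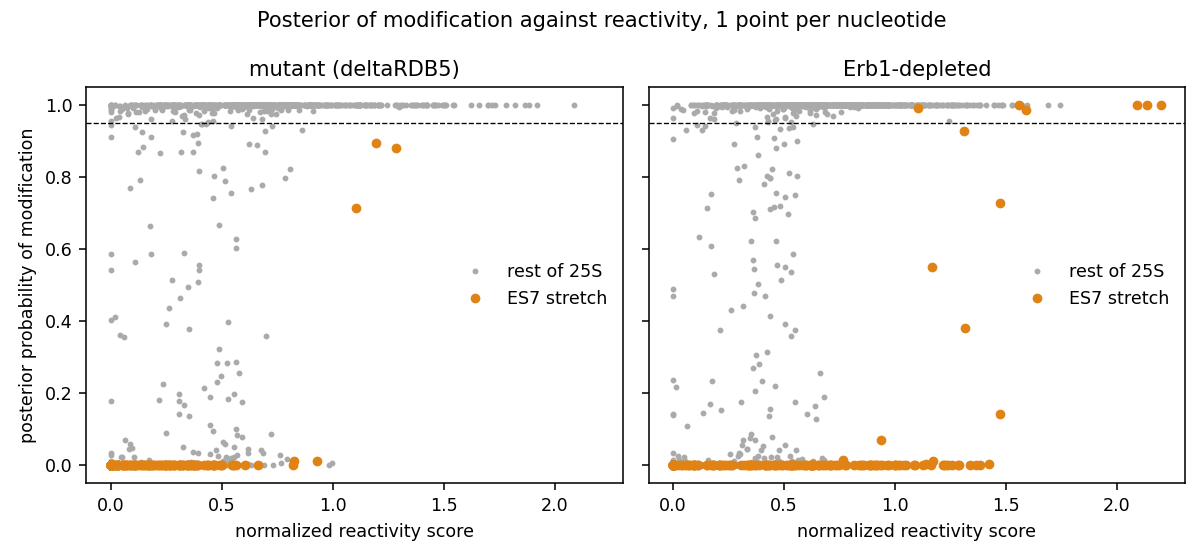
Posterior probability of modification against normalized reactivity score for each nucleotide of the ES7 stretch (orange) and of the rest of 25S (grey), in mutant cells (left) and the Erb1-depleted strain (right). The dashed line is the threshold of 0.95; stretch nucleotides with reactivities of up to 1.47 in Erb1-depleted cells lie below it, where most grey points of that level lie above it.

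The strains differed by a broad offset, most of which lay in the 3' part of the stretch. The mean raw reactivity of the stretch was −0.00288 in mutant cells and 0.0829 in Erb1-depleted cells. The mean difference, mutant minus Erb1-depleted, was −0.0858, with an SD of 0.121 over 214 nucleotides. The median difference was −0.0891 in the stretch and −0.00137 over all 6542 nucleotides. The difference was negative at 169 nucleotides of the stretch (79.0%), against 50.8% over the transcript. The flanks did not share it, with mean differences of 0.0257 in the 215 nt before the stretch and 0.00425 in the 215 nt after it. Mean normalized reactivity was 0.152 in mutant cells and 0.482 in Erb1-depleted cells in the stretch, and 0.200 and 0.207 in the rest of 25S.

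Windows of the same length were laid end to end from the stretch along the transcript, which gave 30 windows with at least 0.9 of their nucleotides measured in both strains. The mean difference of the other 29 ran from −0.0400 to 0.0448, so that of the stretch was the lowest of the 30. The stretch also had the largest number of nucleotides with a normalized reactivity of at least 0.7 in Erb1-depleted cells (63, with at most 53 elsewhere). By the same count in mutant cells, 1 window had fewer than its 6 and 1 had as many. These windows describe these 2 columns of scores and are no test.

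**Figure D3:**
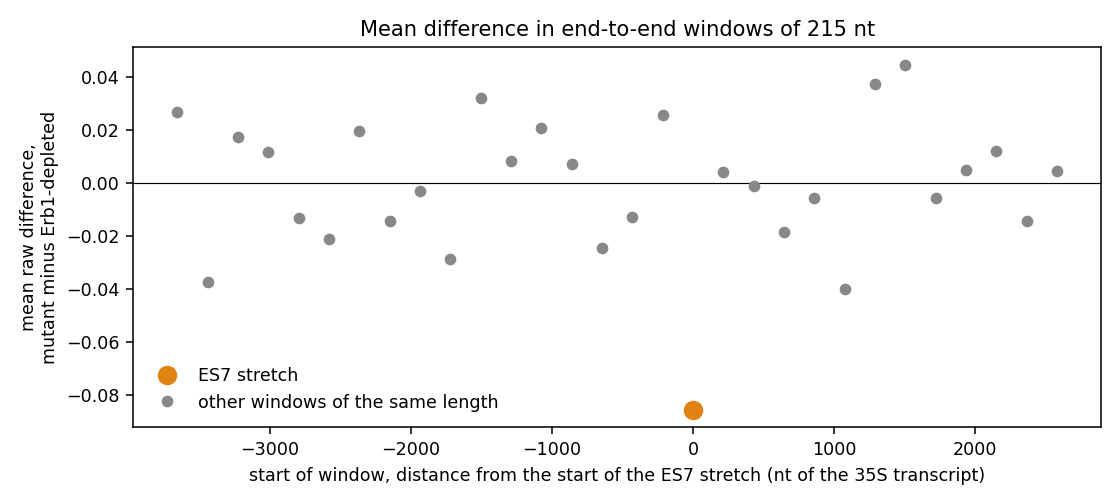
Mean raw reactivity difference, mutant minus Erb1-depleted, in 30 end-to-end windows of 215 nt, by the distance of each window's start from the start of the ES7 stretch in nt of the 35S transcript. The stretch (large orange point) lies at −0.0858 and the other 29 windows (grey) between −0.0400 and 0.0448.

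The offset was present at low and high scores alike, and the Erb1-depleted profile was also wider. The raw scores of the stretch had an SD of 0.0875 in mutant cells and 0.149 in Erb1-depleted cells, against 0.115 and 0.141 in the rest of 25S. A straight line through the stretch, with the Erb1-depleted raw score on the mutant's, had a slope of 0.993 and an intercept of 0.0858. In the rest of 25S the slope was 1.07 and the intercept −0.00422. A slope fitted at a low correlation, here r = 0.583, understates a difference in scale, and among the 5 segments of the stretch the slope ran from 0.755 to 1.46. With the nucleotides of the stretch ranked by the mutant's raw score, the mean difference was −0.112 in the lowest 72, −0.0618 in the middle 71 and −0.0830 in the highest 71. Nucleotides at or below the mutant's mean level were therefore offset as well as those above it. The ranking score is part of the difference, so these values are a description of the fit.

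**Figure D4:**
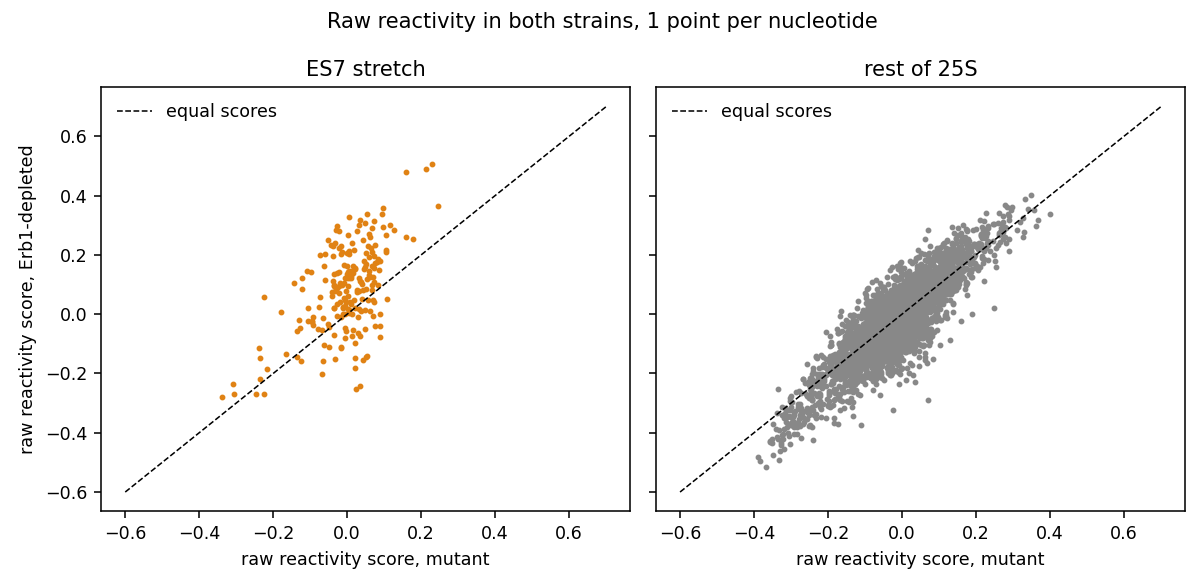
Raw reactivity score of Erb1-depleted cells against that of mutant cells, 1 point per nucleotide, in the ES7 stretch (left) and the rest of 25S (right). The dashed line marks equal scores; most points of the stretch lie above it, while those of the rest of 25S lie on both sides.

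The offset was not even along the stretch. In 5 equal segments of 43 nt, the mean raw difference was 0.00993 in nucleotides 436 to 478, −0.0771 in 479 to 521, −0.0410 in 522 to 564, −0.184 in 565 to 607 and −0.139 in 608 to 650. Mean normalized reactivity in 565 to 607 was 0.294 in mutant cells and 0.986 in Erb1-depleted cells, and 4 against 30 nucleotides there reached 0.7. In 608 to 650 it was 0.0359 in mutant cells and 0.487 in Erb1-depleted cells, with 0 against 15 nucleotides at that level. The first segment had values of 0.218 in mutant cells and 0.262 in Erb1-depleted cells, so most of the offset lay in the 3' part of the stretch.

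Differences were called at single nucleotides by the rule behind the authors' deposited deltaSHAPE columns. Raw differences were smoothed over 3 nt and divided by their SD over the transcript to give a standardized difference, and a call needs at least 1 SD at 3 or more of 5 neighbouring nucleotides. Of the nucleotides called and modified in at least 1 strain, the stretch held 5 that were higher in Erb1-depleted cells, against a background of 5.15% of the transcript, and 0 that were higher in mutant cells, against 0.81%. The 5 were U601, A602, A603, A578 and C596, with standardized differences of −4.63, −4.50, −4.11, −3.74 and −2.61. As 5 of 214 nucleotides they lie below the background share, and few could be counted at all because 6 were modified in either strain. U467 was modified but not called, at −0.75.

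Without the filter on modified nucleotides the picture was different. In the stretch 119 nucleotides were called higher in Erb1-depleted cells, where the background is 11.5% of the transcript, and 22 higher in mutant cells, where it is 13.7%. The number higher in Erb1-depleted cells exceeded that of each of the other 29 windows, where the number was at most 67. Standardized differences of −3 or lower were found at 52 nucleotides of the transcript, and 40 of these lay in the stretch. The lowest of the stretch was −4.67 at U620, and 1 nucleotide of the transcript was lower. U620 had a normalized reactivity of 0 in mutant cells and 1.05 in Erb1-depleted cells, and it was modified by the posterior in neither, so the filter passes over it.

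The calls higher in Erb1-depleted cells included 1 long run, and 60 of the 119 lay outside it. Nucleotides 577 to 635, 59 in a row, were called higher in Erb1-depleted cells, and the next longest run of calls in the transcript had 33. The run is printed because it carries most of the offset, and its capitals mark the 5 nucleotides modified in Erb1-depleted cells.
25S 577 to 635: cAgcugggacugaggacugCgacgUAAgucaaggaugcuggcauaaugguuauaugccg
All 59 differences in the run were negative, which follows largely from its definition by calls in that direction. Mean normalized reactivity was 0.185 in mutant cells and 0.931 in Erb1-depleted cells, and the mean raw difference was −0.211 with an SD of 0.0729. In the mutant 30 of the 59 nucleotides had a normalized reactivity of 0 (50.8%), close to the 49.1% of the transcript. In Erb1-depleted cells 3 did (5.08%), against 48.7% of the transcript. In the 59 nt before the run the mean raw difference was −0.0594, and in the 59 nt after it 0.0193. Outside the run the stretch had a mean difference of −0.0380, within the range of the other 29 windows (−0.0400 to 0.0448). Its median difference there was −0.0555, below the lowest median of those windows, −0.0451.

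Within the run the profiles of the strains were more alike than over the whole stretch. Raw scores of the run had a Pearson r of 0.806 and a Spearman rank correlation of 0.739 between strains over 59 nucleotides. The fitted line had a slope of 1.03 and an intercept of 0.211. These points are neighbours in 1 pair of profiles and share base composition and any control libraries. The run was also picked by its differences, which limits their spread and can raise r. The r and the fitted line are therefore descriptions. In the 59 nt before the run r was 0.564, and in the 59 nt after it 0.923. The whole stretch had r = 0.583, and r between 0.674 and 0.939 was found in the other 29 windows, with a median of 0.892. On one side of the triplet, G600 had raw scores of −0.0523 in mutant cells and 0.249 in Erb1-depleted cells. On the other, G604 had −0.143 in mutant cells and 0.104 in Erb1-depleted cells. Both lay below the triplet in each strain and were higher in Erb1-depleted cells, as was U601, whose raw scores were 0.158 in mutant cells and 0.480 in Erb1-depleted cells.

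From 617 to 630, near the end of the run, no nucleotide reached 0.7 in mutant cells. A619 had a normalized reactivity of 0.0247 in mutant cells and 1.42 in Erb1-depleted cells. A621 had 0 in mutant cells and 1.24 in Erb1-depleted cells, and A622 had 0.180 and 1.38. U623 had 0.374 in mutant cells and 1.37 in Erb1-depleted cells. The highest posterior of these 4 in Erb1-depleted cells was 0.00244, at A619, so none counts as modified. They were chosen after their values were seen.

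To separate the offset from differences at single nucleotides, a running median of the raw difference over 101 nt was taken out and the calls were made again over the transcript. Of the nucleotides modified in at least 1 strain, 4 of the stretch were then called higher in Erb1-depleted cells (background 6.64%) and 0 higher in mutant cells (background 0.949%). The 4 were U601, A602, A603 and A578, with standardized differences of −2.79, −2.63, −2.15 and −1.77 after this step. C596 was no longer called, at −0.29. U467 had −0.06. Taking out the median of the whole stretch in place of the running median left all 5 of the first calls.

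Without the filter, 56 nucleotides of the stretch were called higher in Erb1-depleted cells after this step (background 13.1%) and 45 higher in mutant cells (background 13.2%). These calls are relative to the running median, which was negative in the stretch. Some of the 45 were not higher in mutant cells by the raw difference. Its mean was −0.00656 at 548 to 552 and −0.0322 at 573 to 575, and U594 had −0.154. All 56 had also been called before this step, and of the 119 earlier calls 1 turned to the other direction. All 22 nucleotides called higher in mutant cells before were called again. Taking out a negative median raises every difference of the stretch. That the 22 were kept and no new call higher in Erb1-depleted cells arose follows largely from this. Over the transcript, 552 of 897 calls higher in mutant cells and 504 of 749 the other way were kept. In the run, 37 of 59 were called again, in 4 groups at 577 to 579, 588 to 591, 597 to 612 and 617 to 630. The mean raw difference of the run was −0.211 before this step and −0.0718 after it, so the running median took up part of the run as well. The difference with the running median out still had an SD of 0.102 in the stretch, against 0.0646 over the transcript, and in the other 29 windows the SD was at most 0.0805. This SD still holds some level, since the mean left was −0.0718 in the run and 0.0320 in the stretch outside it. Within the run alone the SD was 0.0711, and in the stretch outside the run it was 0.0971. After each strain's own running median was taken out, r between the strains was 0.629 in the stretch and 0.890 in the rest of 25S.

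**Figure D5:**
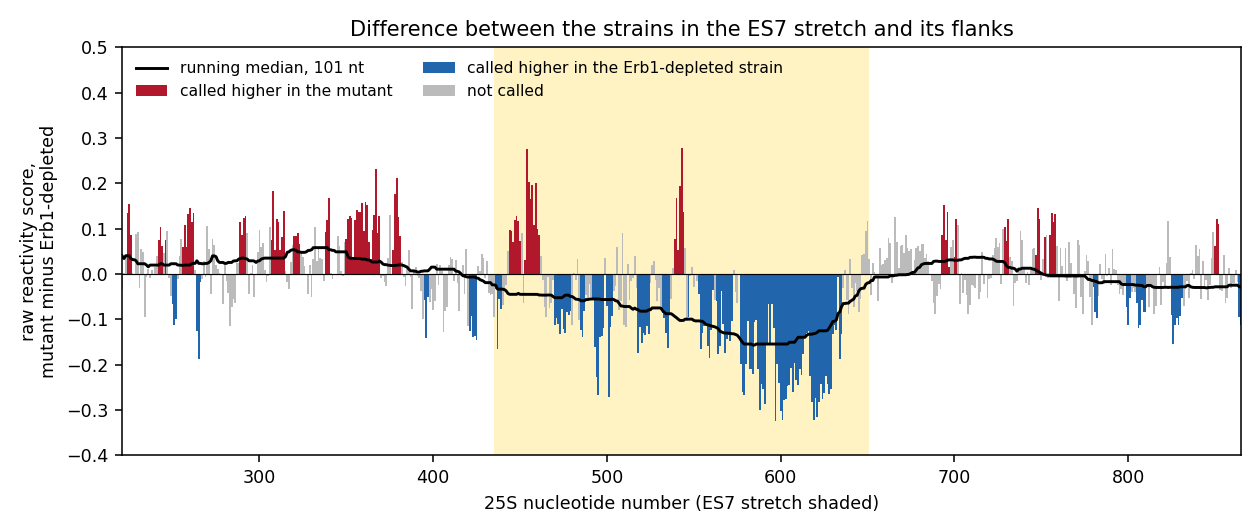
Raw reactivity difference, mutant minus Erb1-depleted, by 25S nucleotide number over the ES7 stretch (shaded) and the 215 nt on either side, with the running median over 101 nt as a line. Red bars are called higher in mutant cells and blue bars higher in Erb1-depleted cells, without the filter on modified nucleotides; blue bars run from 577 to 635 without a break, and red bars stand near 453 to 461 and 539 to 544.

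Against the offset, 3 short runs of the stretch were called higher in mutant cells, at 444 to 450, 453 to 461 and 539 to 544. The 2 with the highest standardized differences are shown with 5 nt on either side, and capitals mark nucleotides called higher in mutant cells.
25S 448 to 466: UUGugCCCUCUGCUccuug
25S 534 to 549: uguagCUUGCCucggu
In 453 to 461 mean normalized reactivity was 0.236 in mutant cells and 0.0201 in Erb1-depleted cells. The highest standardized difference of the stretch, 3.31, lay there at C455, with raw scores of 0.0207 in mutant cells and −0.182 in Erb1-depleted cells. In 539 to 544 mean normalized reactivity was 0.136 in mutant cells and 0.00648 in Erb1-depleted cells. C543 had a standardized difference of 3.12, with raw scores of 0.0235 in mutant cells and −0.254 in Erb1-depleted cells. Mean raw scores were 0.0452 in mutant cells and −0.106 in Erb1-depleted cells over 453 to 461, and 0.0141 in mutant cells and −0.137 in Erb1-depleted cells over 539 to 544. The mutant was thus near the transcript's mean in these runs and the Erb1-depleted strain below it. With the running median out, C455 had a standardized difference of 4.94 and G542 one of 5.27. None of the 22 nucleotides was modified in either strain.

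Between positions 470 and 503 the Erb1-depleted strain was higher in short runs. The strongest, 492 to 498, had a mean normalized reactivity of 0.193 in mutant cells and 0.826 in Erb1-depleted cells. G494 had 0.0643 in mutant cells and 1.04 in Erb1-depleted cells, with a standardized difference of −3.36, and it kept −3.13 with the running median out. The raw difference at G494 was −0.227, and the running median there −0.0550.

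The bases were not offset equally. Mean raw differences in the stretch were −0.127 for A (48 nucleotides), −0.112 for G (63), −0.0635 for U (59) and −0.0321 for C (44). In the rest of the transcript they were −0.00372 for A, −0.0182 for G, 0.0118 for U and 0.0287 for C. Normalized reactivities of at least 0.7 were found at 0 of 63 G in mutant cells and 21 of 63 in Erb1-depleted cells (33.3%). Of the G in the rest of the transcript, 5.55% reached this level in mutant cells and 9.61% in Erb1-depleted cells. For A the numbers in the stretch were 2 of 48 in mutant cells and 22 of 48 in Erb1-depleted cells (45.8%). A was often at this level elsewhere too, with 25.6% in mutant cells and 24.0% in Erb1-depleted cells in the rest of the transcript.

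A fold of the 215 nt alone was predicted with RNAfold, to see whether reactive nucleotides fall where the sequence leaves bases unpaired. It pairs 148 nucleotides and leaves 67 unpaired. Mean normalized reactivity at the unpaired was 0.219 in mutant cells and 0.651 in Erb1-depleted cells, and at the paired 0.124 and 0.405. The 6 reactive nucleotides of mutant cells were all unpaired in this fold. Of the 63 of Erb1-depleted cells, 29 were among the 67 unpaired nucleotides and 34 among the 148 paired. The mean raw difference was −0.113 at unpaired and −0.0735 at paired nucleotides. In the run, 39 nucleotides were paired and 20 unpaired. The fold is a prediction for naked RNA. With 50 nt added on either side, 184 of the 215 nucleotides kept their state, and 5 of the 6 reactive nucleotides of mutant cells were unpaired.

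At the 3' end of the stretch both strains were low. The last 15 nt are printed with the bases methylated in mature 25S in capitals.
25S 636 to 650: cccgucuugAaacAC
A645, the site of 1-methyladenosine, had raw scores of −0.107 in mutant cells and −0.0231 in Erb1-depleted cells. G644 before it had −0.306 in mutant cells and −0.269 in Erb1-depleted cells, and A646 after it had −0.00682 and 0.0486. The 2'-O-methylation sites had −0.0655 in mutant cells and −0.160 in Erb1-depleted cells at A649, and −0.0338 and −0.152 at C650. C648 had −0.226 in mutant cells and −0.271 in Erb1-depleted cells. None of these counts as modified by 1M7, and none was called before the running median was taken out. With it out, C648, A649 and C650 were called higher in mutant cells, with standardized differences of 1.73, 2.05 and 1.92. G651, the first nucleotide after the stretch, was modified in mutant cells with a posterior of 0.984. Its normalized reactivity was 0.279 in mutant cells and 0.0891 in Erb1-depleted cells.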

How the data were processed

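The authors' deposited sheet gives, per the file headers, scores for each nucleotide of the 35S transcript in 1 column per strain: raw reactivity, normalized reactivity (2% to 8% normalized, per the sheet's note), BUM_HMM posterior and deltaSHAPE columns. The submitters' processing notes name Novoalign as a tool, with its version not given in the sources used here. These sources do not say how the scores were computed or which controls entered the Erb1-depleted column. Values that the note marks as insufficient coverage were dropped. The normalized score equals the raw score times 5.21 in mutant cells and 4.35 in Erb1-depleted cells, with negatives at 0. Differences were taken between raw scores, since the normalization sets negatives to 0.

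The calling rule, worked out from the deposited columns, uses a 3 nt mean, a Z-factor above 0, centring, and division by the SD over the transcript (0.0649). Recomputed, it gave 1646 calls over the transcript, of which 0 differed from those deposited. The rule and the running median were tried on simulated data with broad flat offsets and narrow shifts. A run of intermediate length, such as the long run here, was not simulated, so the simulation does not cover it. With 1 column per strain no test was run and no replicate could be left out. A 25S position is the 35S nucleotide number minus 3251.

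The members, lists and rules were chosen with earlier results of these data known. Nucleotides named are the 10 most reactive among those modified in each strain, the called and modified ones (at most 10 per direction), the 5 largest local differences per direction among modified nucleotides at a spacing of 5 nt, and the known modified bases with 1 nt on either side. Others were chosen after their values were seen. Python 3.11.15, numpy 2.4.6, pandas 2.3.3, matplotlib 3.10.9 and RNAfold 2.7.2 were used.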

Additional observations from a re-analysis of the deposited data

How the results depend on the processing

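The mean raw difference of the stretch, −0.0858, was negative under each alternative run. It was −0.0789 with each column scaled by its own factor, −0.0785 at equal SD, −0.0692 on normalized scores with negatives at 0 (in raw units), −0.0891 as a median, −0.106 with the bounds narrowed by 20 nt and −0.0733 with them widened. Widened bounds took the modified nucleotides to 9 in mutant cells and 16 in Erb1-depleted cells, since modified nucleotides lie just outside. With a normalized reactivity of at least 0.7 in place of the posterior they were 6 and 63. Without the filter on modified nucleotides 22 nucleotides were called higher in mutant cells and 119 the other way, because more nucleotides can be counted. With the running median out 45 and 56 were called, as differences relative to that median. At 2 SD in place of 1 and with the running median left in, the calls without this filter were 10 higher in the mutant and 65 the other way. The transcript's shares at 2 SD are not given here, so these counts have no background beside them. With the fold of the widened sequence, paired nucleotides had mean normalized reactivities of 0.133 in mutant cells and 0.405 in Erb1-depleted cells. Of the settings listed at the start, 36 others left each count within 1.5 times of that reported, where a count of 0 stayed at 0. The counts of 0 were the modified nucleotides of mutant cells, and those called and modified that were higher in mutant cells. The 6 nucleotides modified in either strain all had negative raw differences, so those settings say little about calls higher in mutant cells. Added later, both other scalings (own factor and equal SD) gave 22 and 130 calls without the filter, and a mean difference of the long run of −0.193 and −0.192. The transcript's shares of calls under these scalings are not given here either. The level of 0.7, the calls without the filter in their own right and the long run were chosen after the data were seen. No paired analysis was possible because the columns do not tell the libraries of a strain apart. For the same reason no library could be left out, and the unknown depth limits every value.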
